A study of Mus musculus with 12 samples.

Results

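Secreted ribonucleases of the RNase A superfamily and the lysosomal ribonuclease Rnaset2 were followed in macrophages sorted from pancreatic tumor tissue and from normal pancreas of mice. The genes were chosen by name with the difference between tumor and normal samples in view: Rnase1, Rnase4, Rnase6, Ang, Ear1, Ear2, Ear3, Ear10, Ear11 and Rnaset2. Of the 10 names, 9 were found, on 10 of the 39429 probes of the array. Ear11 is the gene now called Rnase2a and is named so here. No probe carried the name Ear3. The probe that serves Rnaset2b also lists Rnaset2a and cannot separate these near-identical copies, so its gene is written Rnaset2a. Because the choice used the contrast of tumor against normal, the levels and differences of these 9 genes are given as a description, with no test.

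Tumor samples were labelled as pancreas tumor macrophages and normal samples as normal pancreas macrophages, all from female C57/B6 mice aged 4 to 5 months, with the genotype not provided. The treatment protocol, the same for every sample, says that animals received implanted tumors. The design text instead lists wild-type mice, KPC mice (which develop pancreatic ductal adenocarcinoma from engineered alleles) and FLT3-CRE/LSL-YFP mice (a reporter of cells descended from Flt3-expressing progenitors), and the labels tie neither account to a sample. Each group had 6 arrays. In each group 1 specimen name stood on 2 arrays, which were averaged (tumor replicates 4 and 6, written tumor 4, and normal replicates 2 and 3, written normal 2), leaving 5 samples per group. Nothing in the labels says that the specimens came from separate animals, so the spread between samples may be partly technical.

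RNase A superfamily members are small secreted enzymes that cut single-stranded RNA, and they are encoded in a cluster on mouse chromosome 14. Pancreatic acinar cells secrete the founding member, Rnase1, as a digestive enzyme, while Ang (angiogenin) cleaves transfer RNA and stimulates vessel growth. The Ear genes, a rodent expansion named eosinophil-associated ribonucleases, are relatives of the human eosinophil granule ribonucleases and several are also made by mouse macrophages. Rnaset2 belongs to the separate T2 family and breaks down RNA in acidic lysosomes.

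The Ear genes are so alike that the probe letters decide what each value can mean, so the 60-base probes of the bright Ear genes are shown with those of dark neighbours. They are read in the sense direction from the array files, with mm9 positions from the array annotation, which gives no exon. Capitals mark bases of Ear7 that differ from the Ear1 probe, and bases of Ear10 and Ear4 that differ from the Ear12 probe, within the stretch where the probes overlap.
Ear1: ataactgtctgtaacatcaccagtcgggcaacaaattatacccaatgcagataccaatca
Ear7: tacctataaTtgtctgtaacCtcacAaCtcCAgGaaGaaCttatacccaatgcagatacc
Ear12: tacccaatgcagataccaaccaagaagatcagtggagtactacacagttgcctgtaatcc
Ear10: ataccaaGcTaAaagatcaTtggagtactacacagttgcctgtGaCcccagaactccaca
Ear4: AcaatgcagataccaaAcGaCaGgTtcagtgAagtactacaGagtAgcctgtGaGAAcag
The Ear1 probe lies at chr14:44396709-44396768 on the minus strand and the Ear7 probe at chr14:52473974-52474033 on the plus strand. Over the 55 bases that overlap, 46 match. The Ear12 probe lies at chr14:44680899-44680958 (plus), the Ear10 probe at chr14:44500615-44500674 (minus) and the Ear4 probe at chr14:51823711-51823770 (plus). The Ear10 probe matches 42 of 48 overlapping bases of the Ear12 probe, and the Ear4 probe 44 of 57. The Ear7 probe was not well above background on any of the 12 arrays and the Ear4 probe on 0 of 6 tumor and 1 of 6 normal arrays, while Ear1, Ear10 and Ear12 were well above background on all 12. The Ear7 and Ear4 probes were thus dark on arrays where the Ear1 and Ear12 probes, which share most of their letters, were bright.

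The Ear2 probe lists an Ear1 transcript beside its own, and it lies 220 bases, start to start, from the Ear12 probe, at chr14:44681119-44681178 (mm9, plus). Signals of Ear1, Ear2, Ear10 and Ear12 are therefore uncertain as to which copy gave them.

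In the levels that follow, each value is a log2 signal relative to the 75th percentile of its array, so that 0 is the signal that 3 in 4 probes do not exceed. Probe brightness depends on the probe, so levels are compared between samples and not between genes. Of the 9 genes, 7 were well above background on all 12 arrays, the exceptions being Rnase1 and Rnase6. With 2 bulk groups, fewer cells that make a transcript and less of it per cell cannot be told apart.

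In macrophages from tumors Rnase1 was near the bottom of the array, and in macrophages from normal pancreas it was bright. Rnase1, the digestive ribonuclease of pancreatic juice, had levels of -5.34, -5.20, -5.49, -3.88 and -2.46 in tumor samples 1 to 5, against 3.35, 5.18, 4.38, 4.16 and 0.98 in normal samples 1, 2, 4, 5 and 6. The groups did not overlap, tumor 5 was the highest of its group and normal 6 the lowest of its group. The difference was -8.08 ± 0.81 (log2, tumor minus normal, SE), or 271-fold lower in tumor. The probe, at chr14:51764724-51764783 (mm9, minus), passed the background test on 1 of 6 tumor arrays and 6 of 6 normal arrays, so the size of the difference is uncertain. It was -5.20 with normexp background correction, which lifts dim signals, and it was -9.58, -9.28 and -5.87 within the slides 1, 2 and 3.

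Acinar markers moved with Rnase1. Of 26 acinar genes tested, 20 were lower in tumor samples and 0 higher (limma, Benjamini-Hochberg adjusted p under 0.05, a call that 0.512% of the 16402 genes tested made in that direction), and their median difference was -6.07, against -0.0044 over all genes. Ctrl, a chymotrypsin-like protease, averaged 1.44 ± 1.38 in tumor and 7.79 ± 1.50 in normal samples (SD, n = 5 each, limma adjusted p = 0.00599), and Cela3b, an elastase, 0.61 ± 1.36 and 7.09 ± 1.60 (adjusted p = 0.00599). Pnliprp2, a lipase relative, did not pass the background test in any tumor sample and was at least 29.2-fold lower in tumor (limma adjusted p = 0.00428). Such a bound sets the mean of the bright group against that of the dark group, in which each array counts with the lowest signal among its probes well above background or with the probe's own signal, if higher. The summed linear signal of the acinar list, in multiples of the 75th percentile, ran from 13.1 to 350.5 in tumor and from 675.5 to 7527 in normal samples. The mean level of the list was highest in tumor 5 (1.76) among tumor samples and lowest in normal 6 (3.17) among normal samples, the same samples that stood out for Rnase1. The part of acinar RNA in the Rnase1 difference was not tested.

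**Figure D1:**
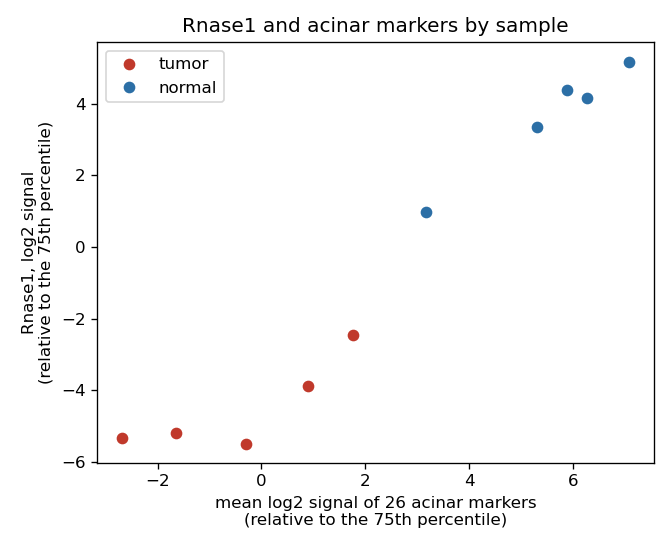
Level of Rnase1 (vertical axis) against the mean level of the 26 acinar markers tested (horizontal axis), both as log2 signal relative to the 75th percentile of the array, with 1 point per sample (5 tumor, 5 normal). Tumor samples lie between -5.49 and -2.46 for Rnase1 and normal samples between 0.98 and 5.18, and in both groups the samples with higher acinar means tend to have more Rnase1.

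To see which genes varied like each ribonuclease within the groups, every sample was set against the mean of its own group and these deviations were compared over the 10 samples. Cldn3, an epithelial tight-junction protein, Ctrl and the RIKEN gene 2900040C04Rik were most like Rnase1 among 16290 genes, with a Pearson correlation of 0.97, 0.97 and 0.96. The Rnase1 and Cldn3 probes passed the background test on only 1 and 2 of 6 tumor arrays, so most of their tumor values lie near background, while Ctrl and 2900040C04Rik passed on all 12. The median over the 26 acinar markers was 0.85, against -0.0041 over all genes, and 0.67 with tumor 5 and normal 6 left out. These correlations describe 10 samples that share amplification and array.

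Rnase4 and Ang, which share a start site in the RefSeq annotation, were both lower in tumor samples but varied differently among samples. Rnase4, a secreted ribonuclease that prefers to cut after uridine, had levels of 1.82, 1.63, 2.06, 1.42 and 1.09 in tumor samples, against 2.82, 2.48, 2.67, 3.13 and 2.49 in normal samples. Every tumor sample was below every normal sample. The difference was -1.11 ± 0.24 (log2, SE), or 2.16-fold lower in tumor, on a probe at chr14:51725036-51725095 (mm9, plus) that was well above background on all arrays. Within slides it was -0.89, -0.85 and -1.57. Acinar markers were lower in the same group. The correlation of deviations between Rnase4 and Rnase1 was -0.37 over 10 samples, with Rnase1 above background on 1 of 6 tumor arrays. The part of acinar RNA in the Rnase4 difference was not tested.

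Ang had levels of -0.21, -2.06, -0.02, -0.57 and -1.42 in tumor samples, against 3.61, 0.12, -0.36, 0.88 and 0.44 in normal samples. The groups overlapped, because normal 4 lay below tumor 1 and tumor 3, and normal 1 stood far above all other samples. The difference of -1.79 ± 0.71 (log2, SE) was -1.12 without normal 1. It was -3.00, -0.15 and -1.67 within slides 1, 2 and 3, and normal 1 was on slide 1. The probe of Ang lies at chr14:51721338-51721397 (mm9, plus).

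The 250 bases before the start that RefSeq gives to both genes (GRCm38.p6, chr14:51090827-51091076, plus strand) are shown because the pair differ in pattern over samples although the annotation joins them at this start. RefSeq also gives Rnase4 a further window, which is not shown.
Rnase4 and Ang: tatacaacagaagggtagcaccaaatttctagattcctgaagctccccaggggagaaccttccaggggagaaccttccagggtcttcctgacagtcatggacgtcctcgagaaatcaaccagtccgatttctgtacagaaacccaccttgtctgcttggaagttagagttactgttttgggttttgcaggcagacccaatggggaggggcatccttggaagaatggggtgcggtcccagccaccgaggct
The correlation of deviations between Rnase4 and Ang was 0.41 over the 10 samples. Atp6v1d, a subunit of the proton pump that acidifies lysosomes, Ecsit and Gm5848 were most like Rnase4 (0.96, 0.93 and 0.93), and Etfa, a mitochondrial electron carrier, Gm6498 and Guk1 were most like Ang (0.96, 0.95 and 0.92).

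The Ear genes were higher in tumor samples, by similar amounts. Ear2, which in mouse is also made by lung macrophages, had levels of 5.05, 4.52, 3.93, 4.70 and 4.70 in tumor samples, against 3.99, 2.26, 2.98, 3.29 and 3.64 in normal samples. The groups overlapped in 1 place only, where tumor 3 (3.93) lay below normal 1 (3.99). The difference was 1.35 ± 0.34 (log2, SE), or 2.55-fold higher in tumor.

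Ear1 had levels of 5.14, 4.83, 4.21, 5.31 and 5.15 in tumor samples, against 4.62, 2.81, 3.99, 4.17 and 4.25 in normal samples. Tumor 3 lay below normal 1 and normal 6. The difference was 0.96 ± 0.35 (log2, SE) and was 0.67 without normal 2.

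Ear10 had levels of 3.81, 3.01, 2.45, 3.38 and 3.55 in tumor samples, against 2.82, 0.66, 1.75, 1.62 and 2.33 in normal samples. Again tumor 3 lay below normal 1. The difference was 1.40 ± 0.41 (log2, SE), or 2.64-fold higher in tumor, and 1.11 without normal 2.

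Rnase2a (Ear11), a ribonuclease that attracts macrophages in mouse, had levels of 4.48, 3.86, 3.23, 4.12 and 3.86 in tumor samples, against 3.31, 1.96, 2.54, 2.75 and 3.29 in normal samples. Tumor 3 lay below normal 1 and normal 6. The difference was 1.14 ± 0.32 (log2, SE), or 2.20-fold higher in tumor. The probe lies at chr14:51875064-51875123 (mm9, minus).

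For all 4 of these Ear genes the differences within slides had the same sign, from 1.04 to 1.31 for Ear1, 1.23 to 1.70 for Ear2, 1.51 to 1.75 for Ear10 and 0.96 to 1.53 for Rnase2a. In each of them normal 2, whose 2 arrays were the dimmest of the series (75th percentile of signal 398 and 430.2, against up to 1547), was the lowest sample of all. Normal 2 also had the highest mean level of all samples for the acinar (7.07), endothelial (0.80) and ductal and epithelial (1.88) marker lists. The part of acinar RNA in the Ear differences was not tested.

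**Figure D2:**
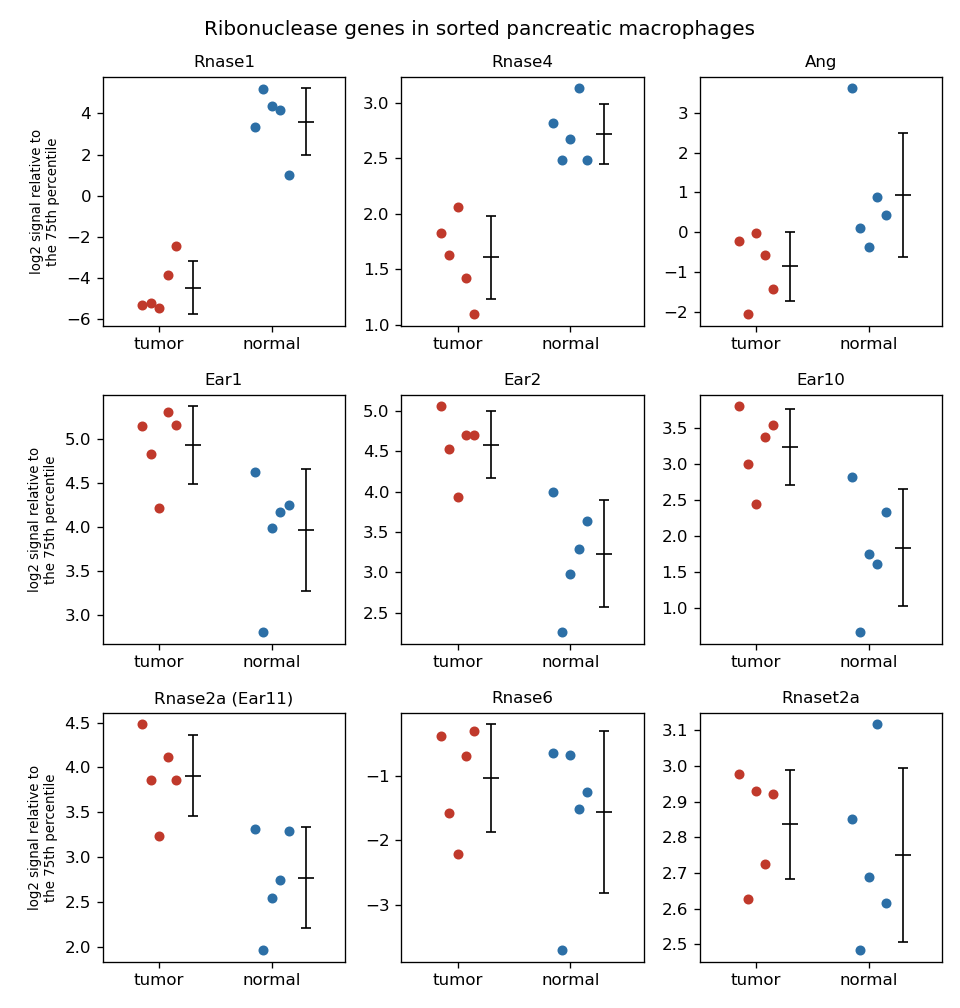
Levels of the 9 ribonuclease genes as log2 signal relative to the 75th percentile of the array (vertical axes, scaled per panel), with 1 point per sample, 5 tumor at the left and 5 normal at the right of each panel. Bars give the mean and SD of each group. Rnase1 and Rnase4 do not overlap between groups, the Ear genes overlap only through tumor 3, and Rnaset2a overlaps throughout.

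Eosinophils are another known source of Ear transcripts, so their markers were read in the same samples. The list had 6 genes tested with 0 called (limma, adjusted p under 0.05) and 1 at an unadjusted p under 0.05, which 13% of all genes reached. Its summed linear signal ran from 1.22 to 10.4 multiples of the 75th percentile in tumor samples and from 0.704 to 2.55 in normal samples. Epx, the eosinophil peroxidase, was not well above background on any array, and Ccr3, the eotaxin receptor, on 0 tumor arrays and 1 normal array. The other markers were not dark throughout. Prg3 and Prg2, granule major basic proteins, passed the background test on 5 and 3 tumor arrays and on 5 normal arrays each, with differences of -0.67 ± 0.31 and -0.72 ± 0.41 (log2, SE, limma adjusted p = 0.390 and 0.488). Alox15, a lipoxygenase also induced by interleukin-4 in macrophages, passed on 6 tumor and 5 normal arrays, Il5ra, the interleukin-5 receptor, on 5 and 2, and Gata1, a transcription factor, on 4 and 1, with differences of 2.02 ± 1.40, 0.82 ± 0.57 and -0.09 ± 0.28 (adjusted p = 0.574, 0.576 and 0.915). Siglecf, which eosinophils and alveolar macrophages carry, passed on 4 tumor and 0 normal arrays and was, in tumor samples, at least 1.91-fold higher (adjusted p = 0.234 by limma). The part of eosinophil RNA in the Ear differences was not tested.

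Macrophage lists were read as well. Of 12 alveolar-type macrophage genes tested, 1 was called higher, Plet1 (5.59 ± 1.06, log2, SE, limma adjusted p = 0.0401), and of 17 interleukin-4 response genes, 2 were called higher, Pdcd1lg2, a ligand of the checkpoint receptor PD-1 (dark on all normal arrays and at least 4.52-fold higher in tumor, adjusted p = 0.00599), and Ccl17, a chemokine (3.44 ± 0.67, adjusted p = 0.0452), against 0.341% of all genes called higher. At an unadjusted p under 0.05 there were 5 of the 12 and 10 of the 17, against 13% of all genes. The interleukin-4 list had a median difference of 0.79 and the alveolar-type list of 0.26. Of the 18 macrophage identity genes 0 passed, and 2 had an unadjusted p under 0.05. Their median was 0.03, and all 18 were well above background on all arrays. Of 10 non-classical monocyte genes 0 passed, with 1 at an unadjusted p under 0.05 and a median of -0.11. Of 9 endothelial and 7 ductal and epithelial genes 0 passed, with 2 and 1 at an unadjusted p under 0.05 and medians of -0.57 and -0.47. The part of these cell types and programs in the Ear differences was not tested.

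The Ear genes moved together from sample to sample within the groups. Over the 10 pairs that Ear1, Ear2, Ear10, Ear12 and Rnase2a form, the Pearson correlation of deviations over 10 samples ran from 0.89 to 0.97. It ran from 0.84 to 0.96 without normal 2, and from 0.68 to 0.93 without normal 2 and tumor 3, with a median of 0.87. The Ear10 and Ear12 probes share letters and the Ear2 probe lists an Ear1 transcript, so these values are not independent of each other, and shared letters were not compared for the other pairs. Il4i1, an enzyme that oxidises phenylalanine and is induced by interleukin-4, was most like Ear2 (0.99), followed by Ear10 (0.97) and Rnase2a (0.97), and it was also most like Rnase2a (0.98). Il4i1 averaged 3.85 ± 1.09 in tumor samples and 1.61 ± 1.43 in normal samples (SD, n = 5 each, limma adjusted p = 0.214). Tumor 3 (2.12) and normal 2 (-0.67) were the lowest of their groups for Il4i1 too, and its correlations were not recomputed without them. Krt36, Pard6a and Omp were most like Ear1 (0.97, 0.97 and 0.96), and Hr, Ear2 and Ppp2r3c most like Ear10 (0.98, 0.97 and 0.97). The third gene beside Rnase2a, after Il4i1 and Ear2, was a transcript with no gene symbol, NAP026435-1 (0.96). Genes outside the family were often as alike, since among 16290 genes 1 Ear gene ranked from 2 to 87 beside another. The median correlation of Ear2 with all genes was 0.0046.

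**Figure D3:**
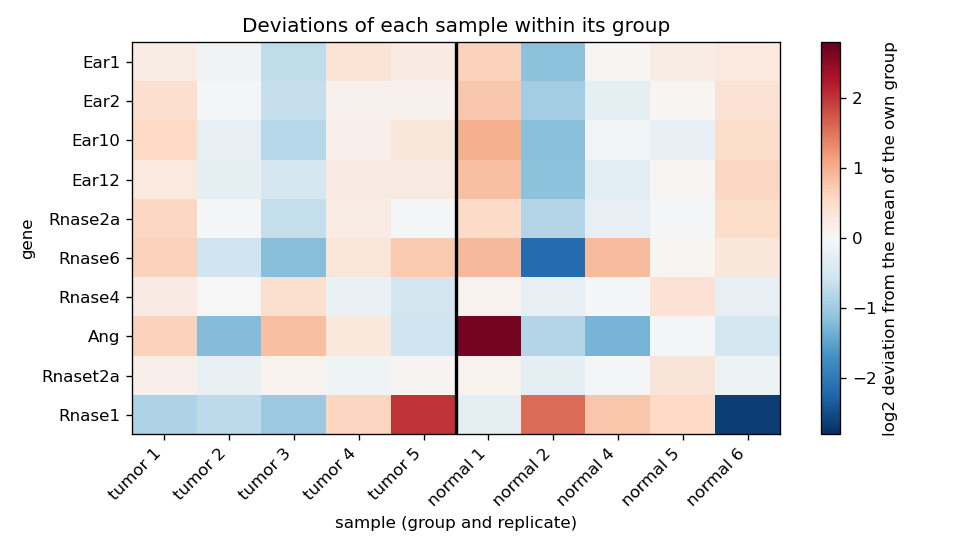
Deviation of each sample from the mean of its own group (colour, log2), for 10 ribonuclease genes in rows and 5 tumor and 5 normal samples in columns. The rows of Ear1, Ear2, Ear10, Ear12 and Rnase2a show the same pattern, with tumor 3 and normal 2 low and normal 1 high, and the rows of Rnase4, Ang, Rnaset2a and Rnase1 do not follow it.

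The 250 bases before the start are shown for 3 Ear genes, since Ear1 and Ear2 moved together and Ear6 stayed dark. Capitals in Ear2 and Ear6 mark bases that differ from Ear1 in an alignment, insertions included. The sequences are from RefSeq (GRCm38.p6) at chr14:43819640-43819889 (minus) for Ear1, chr14:44102404-44102653 (plus) for Ear2 and chr14:51853518-51853767 (plus) for Ear6.
Ear1: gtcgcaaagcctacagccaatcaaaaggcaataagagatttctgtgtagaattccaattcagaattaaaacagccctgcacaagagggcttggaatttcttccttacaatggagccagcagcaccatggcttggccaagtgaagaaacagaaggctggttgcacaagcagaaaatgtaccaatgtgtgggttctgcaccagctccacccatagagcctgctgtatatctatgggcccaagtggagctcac
Ear2: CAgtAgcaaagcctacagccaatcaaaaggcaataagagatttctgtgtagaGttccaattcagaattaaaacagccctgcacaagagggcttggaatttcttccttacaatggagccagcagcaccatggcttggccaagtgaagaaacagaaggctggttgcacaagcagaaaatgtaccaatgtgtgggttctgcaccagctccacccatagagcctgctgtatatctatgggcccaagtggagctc
Ear6: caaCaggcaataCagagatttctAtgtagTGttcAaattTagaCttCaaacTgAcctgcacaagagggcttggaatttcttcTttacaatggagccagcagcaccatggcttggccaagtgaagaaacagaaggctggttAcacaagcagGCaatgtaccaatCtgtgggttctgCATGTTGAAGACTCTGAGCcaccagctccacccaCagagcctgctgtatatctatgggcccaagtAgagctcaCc
The Ear2 window matched 246 of 250 bases of the Ear1 window (98.4%), Ear10 232 (92.8%) and Ear6 212 (84.8%). Rnase2a matched 71.6%, and the correlation of its deviations with those of Ear1 was 0.89. Whether likeness of these windows bears on the levels was not tested. Rnase2b, dark on all arrays, matched 83.2%, and Ear14 matched 54.4%. Ear6 was not well above background on any array, and neither was Ear7, whose probe lies 279 bases from it (start to start, mm9).

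Motifs of factors known from macrophages, and the TATA box, were searched on both strands in the 250 bases of 13 family genes. The same was done in all 32817 windows of the RefSeq table. A family gene counted if any of its windows matched, while the percentages count single windows. TTGCNNAA, a C/EBP-type motif, was found in 7 of the 13 (Ear1, Ear2, Ear10, Rnase2a, Rnase2b, Rnase4 and Rnase6), and in 9.57% of all windows. Ear1, Ear2, Ear10 and Rnase2b hold it as the same letters, ttgcacaa, in windows that are much alike, so their matches are not independent. In Ear1, Ear2 and Ear10 the motif begins 92, 90 and 94 bases before the start (the Ear10 window is not shown). It is not in the Ear6 window printed above, where that place reads ttAcacaa. Rnase2b holds it and was dark on all arrays. The Rnase4 match lies in another RefSeq window of Rnase4, not in the one printed above that Ang shares. GAGGAA, the core of PU.1 sites, was in 3 of 13 (Rnase2a, Rnase6 and Rnaset2a) and in 23.3% of all windows. TATAAA, the TATA box, was in 0 of 13 and in 12.4%. These are matches of letters.

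Rnase6, an antimicrobial ribonuclease of monocytes and macrophages, did not separate the groups. Its levels were -0.38, -1.58, -2.21, -0.68 and -0.30 in tumor samples, against -0.64, -3.71, -0.68, -1.51 and -1.25 in normal samples. The lowest value was that of normal 2, on both arrays of which the probe was not well above background, while it was so on the other 4 normal and all 6 tumor arrays. The difference was 0.53 ± 0.60 (log2, SE), -0.01 without normal 2 and 0.09 with normexp. Rnase6 followed the Ear genes within the groups, with correlations of 0.78 to 0.92, which were 0.24 to 0.62 without normal 2 and tumor 3. Its probe lies at chr14:51750572-51750631 (mm9, plus).

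Rnaset2a was the steadiest of the genes. Its levels were 2.98, 2.63, 2.93, 2.73 and 2.92 in tumor samples, against 2.85, 2.48, 2.69, 3.12 and 2.62 in normal samples, and the groups overlapped throughout. The difference was 0.09 ± 0.20 (log2, SE), within 1 SE of 0, and -0.08 within slide 3. The probe lies at chr17:8321511-8321570 (mm9, minus). A dimmer probe of the gene at chr17:8335289-8335348 was well above background on 4 tumor and 2 normal arrays and gave 0.28 ± 0.64. Aftph, LOC102641578 and 9530062K07Rik varied most like Rnaset2a (0.93, 0.92 and 0.90).

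Of the 9 genes, 6 had a positive and 3 a negative difference, with a median of 0.53, against -0.0044 over all genes. By the call used for other genes, 1 of the 9 passed, Rnase1, where 0.854% of all 16402 genes did. The choice of the genes used this contrast, and nothing is read from that count. In 2 of the 9, Rnase1 and Rnase4, every tumor sample lay below every normal sample, as in 1.58% of 16291 genes with a value in every sample, and in 0 of the 9 did every tumor sample lie above, as in 1.77%.

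Repeat arrays of 1 specimen, on different slides, agreed more closely than samples did for most genes. Over the 9 genes the gap between the 2 arrays was 0.01 to 0.55 for tumor 4 and 0.0017 to 0.23 for normal 2, with medians of 0.07 and 0.05, against SDs of 0.15 to 1.30 between tumor samples and 0.24 to 1.61 between normal samples. The wide spread of Ang between samples (SD 0.86 in tumor and 1.56 in normal samples) stood beside gaps of 0.08 and 0.0017.

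Other genes of the superfamily were not among those chosen and were tested, though their list too was drawn up with earlier results of these data known. Of 18 listed, 13 had a probe and 7 were bright enough to test. None of the 7 passed in limma at an adjusted p under 0.05 (0 higher, 0 lower), and 3 had an unadjusted p under 0.05, against 13% of all genes. Ear12 had levels of 5.23, 4.69, 4.50, 5.19 and 5.21 in tumor samples, against 4.42, 2.44, 3.30, 3.62 and 4.17 in normal samples, with every tumor sample above every normal one, as in 1.77% of genes. The difference of 1.37 ± 0.37 (log2, SE) had a limma adjusted p = 0.141, ranging over alternatives from 0.0330, with the 12 arrays taken as separate samples, to 0.727. Because the Ear12 and Ear2 probes lie 220 bases apart, the 2 values are not independent.

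Ang2, an angiogenin relative, averaged -2.92 ± 0.28 in tumor samples and -0.87 ± 1.31 in normal samples (SD, n = 5 each, limma adjusted p = 0.136). Every tumor sample lay below every normal sample, as in 1.58% of genes. The difference of -2.05 ± 0.54 (log2, SE) was -1.16 with normexp, and the probe was well above background on 4 tumor and 5 normal arrays. Ang4, an angiogenin of intestinal Paneth cells that kills bacteria, averaged -0.76 ± 0.68 in tumor and 0.61 ± 0.83 in normal samples (SD, n = 5 each, limma adjusted p = 0.220). Ang3 differed by -0.38 ± 0.23 and Rnase10, Rnase12 and Rnase13 by 0.04, 0.36 and 0.09, and these 4 did not pass. Ang, Ang2, Ang4 and Ang3 all had negative differences, and Ear1, Ear2, Ear10, Ear12 and Rnase2a positive ones. Ear6, Ear7, Rnase2b, Rnase9 and Rnase11 were not well above background on any array.

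**Figure D4:**
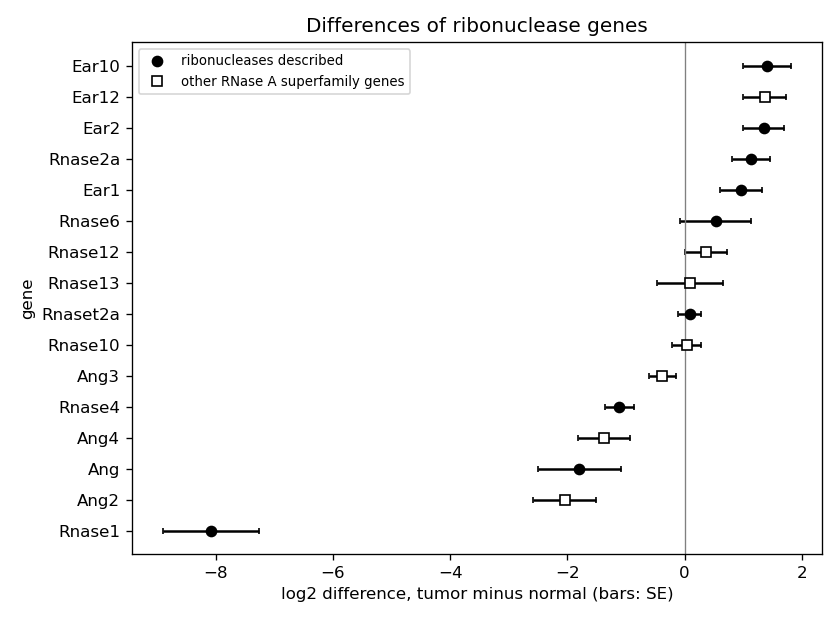
Difference in log2 level between tumor and normal samples (horizontal axis, tumor minus normal, with SE) for the 9 ribonuclease genes described (filled circles) and the 7 other genes of the superfamily tested (open squares), ordered by size. The Ear genes lie near 1 to 1.4, the Ang genes between -2.05 and -0.38, and Rnase1 at -8.08.

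Partners of the secreted ribonucleases were read from a list of 20 tested genes for the inhibitor, the angiogenin receptor and intracellular ribonucleases. None of them passed (0 higher, 0 lower, limma adjusted p under 0.05), and 0 had an unadjusted p under 0.05, against 13% of all genes. Rnh1, the cytosolic inhibitor that binds RNase A enzymes, averaged -0.61 ± 0.80 in tumor and -1.14 ± 0.69 in normal samples (SD, n = 5 each, limma adjusted p = 0.637). Plxnb2, a receptor for angiogenin, averaged 3.10 ± 0.13 and 3.38 ± 0.34 (adjusted p = 0.621). Rnh1 and Plxnb2 were named for their role. The smallest p-values of the list belonged to Angel2, Samhd1 and Rnaseh2a, with differences of 0.65, 0.32 and 0.41 and adjusted p of 0.483, 0.504 and 0.583.

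Genes that handle or sense RNA in endosomes and lysosomes, where Rnaset2 acts, were read from a list of 18 tested. None passed (0 called), and 5 had an unadjusted p under 0.05, which 13% of all genes reached. Ctsl, a lysosomal protease, averaged 1.91 ± 0.49 in tumor and 0.68 ± 0.41 in normal samples (SD, n = 5 each, limma adjusted p = 0.105). Sidt2, which carries RNA across the lysosomal membrane, averaged 4.14 ± 0.20 and 3.29 ± 0.27 (adjusted p = 0.109), and Acp5, an acid phosphatase, 4.04 ± 0.61 and 2.39 ± 0.95 (adjusted p = 0.160). With normexp background correction 3 of the list passed, where over all genes 97 were called higher and 116 lower.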

How the data were processed

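Amplified, Cy5-labelled cDNA of sorted macrophages was hybridised to 1-colour Agilent arrays, 4 to a slide on 3 slides, with 2 arrays of each group on every slide. The spot intensity values were deposited by the authors as Agilent Feature Extraction 11.5.1.1 output, per the file headers and the submitters' processing notes, with background and spatial trend subtracted. A log2 table that the authors deposited too equalled quantile-normalized log2 signals (median absolute difference 0.00231, lowest correlation 0.9999, median of each column 7.08). Here log2 processed signals were averaged over the spots of a probe, without control and outlier-flagged spots (0.401%; 0 saturated), and each array's 75th percentile was subtracted. On an array 39.3% to 58.8% of probes were well above background. Probes that passed the background test on 3 or more of 6 arrays in a group were kept (22446). They were named by accession, symbol or synonym in a RefSeq table of GRCm38.p6 (28025, 3413 and 283 of all probes; 4997 kept the file's name and 2711 had none), and the brightest probe stood for each of 16402 genes. The test was limma 3.58.1 under R 4.3.3 (lmFit with eBayes; two-sided p adjusted by Benjamini-Hochberg and called under 0.05; median standard error 0.35), after a test on simulated data. The number of arrays limits the precision. The members and gene lists were chosen with earlier results of these data known. Named genes are every member, the genes of each list past the threshold (for the acinar list, the smallest p-values) or otherwise up to 3 with the smallest p, the 3 genes most like each member, and, for their role, Rnh1, Plxnb2 and every eosinophil marker with a probe. Alternatives covered background correction, scaling, the deposited table, filters, shared specimens, slides, probes of a gene, flags and leaving out each sample.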

Additional observations from a re-analysis of the deposited data

Results flagged for a closer look

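The level of each family gene was screened for a sample that stands apart from its group, by the gap to its nearest neighbour over the range of the group (critical value 0.71 for 5 samples). Of 32 groups, 2 had such a sample, where chance gives about 1 in 20. The first was Rnase6 in normal samples, with normal 2 lowest at -3.71. The second was Rnase10, a ribonuclease-like protein of the male reproductive tract, in tumor samples, with tumor 4 highest at 0.77.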

How the results depend on the processing

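Over 24 alternatives and 9 genes, 211 of 216 differences moved by less than the spread between samples (the pooled SD of the groups). That count says little about robustness. Leaving out 1 of 5 samples cannot move a difference by a pooled SD, and the alternative filters on dim probes left all 9 differences unchanged. The 5 that moved more were Rnase1 with normexp (-5.20) and within slides 1 (-9.58) and 3 (-5.87), Rnase4 within slide 3 (-1.57) and Ang within slide 2 (-0.15). Rnase6 (-0.01 without normal 2) and Rnaset2a (-0.08 within slide 3) each changed sign under 1 alternative. Genes called higher numbered 56, against 97 with normexp, 96 with a filter on all arrays of a group, 228 with 12 separate arrays and 0 within each slide, and genes called lower 84, against 232 with 12 separate arrays and 0 within each slide. Leaving out 1 sample gave 26 to 79 higher and 33 to 118 lower. Without tumor 1, 2 and 5 there were 27, 27 and 34 higher, and without normal 4 and 5 there were 32 and 26. Without tumor 1, 2 and 3 there were 51, 44 and 53 lower, and without normal 1 and 5 there were 46 and 33. The other superfamily genes had 1 call (Ear12, 1.60) with 12 separate arrays, and the RNA handling and sensing list 3 with normexp, 1 with 12 separate arrays and 0 to 1 on leaving out a sample (1 without normal 2). With slide as a block and specimen as a random effect the counts were 58 and 92. No paired analysis was possible because the labels give no replicate numbers, and those used here only follow the order of the arrays. Slide, which holds 2 arrays of each group, is the block that could be fitted.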
